A study of Mus musculus with 6 samples.

Results

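The 3 arrays described here come from a mouse stromal line of bone marrow, KUSA4b10, cultured for 21 days towards osteoblasts. They were chosen by their sample titles and are 3 of the 6 arrays in the series. The other 3 arrays hold osteosarcoma lines, and no value of theirs is given below. The cells were grown in RPMI with 10% fetal calf serum and, from confluence on, with 50 ug/ml ascorbate in the same medium. The labels give C57Bl6 as the strain and no genotype, age or added phosphate or hormone for these cells. The titles pair replicate numbers 1 to 3 with the tags Ex1, Ex2 and Ex3, and the samples are called cultures 1 to 3. The labels do not say what the tags mean or whether the cultures were grown separately, so the spread between them may in part be technical. All 3 are 1 cell line, and no undifferentiated or earlier KUSA4b10 sample was analysed here. A level below is therefore a level at day 21 and not a response to differentiation.

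Osteoblasts arise from stromal precursors under transcription factors such as Sp7 and Dlx5. They lay down a matrix of type I collagen and small proteoglycans, then mineralise it with the help of alkaline phosphatase and phosphate-handling proteins, and some become osteocytes enclosed in bone. The same marrow stromal precursors can also become fat cells under Pparg and Cebpa, and KUSA4b10 cells have been used as a model of both fates. Ascorbate is needed for the hydroxylation of collagen chains in the endoplasmic reticulum.

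Expression is given as log2 values for 19938 genes, each read from its brightest probe set. A rank is the place of a gene's mean over the 3 cultures among these genes, with rank 1 the brightest. The deposited values carry no detection call. As a reference for low signal, the 1194 olfactory and vomeronasal receptor genes on the array, which serve sensory neurons, had a median of 5.19 and a 95th percentile of 6.86, called the receptor level below. For these receptor genes the 99th percentile was 7.61 and the highest mean 9.43. A value above the receptor level is therefore not a detection call. The median of all genes was 7.92. The top 5% of genes (996 genes) began at 11.72 and the top 1% (199 genes) at 12.88. Probes bind with different strength, so a rank orders signals and not RNA molecules. Where a gene had several probe sets (999 genes), its 2 brightest sets lay a median of 0.56 and a 90th percentile of 2.35 log2 units apart. Neighbours in rank closer than this have no settled order.

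The cultures were alike in most genes, and culture 2 stood apart from both others. The median SD over the cultures was 0.09 log2 units, and 231 genes had a range (highest minus lowest) above 1, or 1.16% of all genes. Cultures 1 and 3 differed by more than 1 in 3 genes (0.015% of all genes), Vldlr, Aldh1a7 and the predicted gene Gm21286. Culture 2 differed by that much from culture 1 in 150 genes (0.752%) and from culture 3 in 187 (0.938%). Culture 2 lay more than 1 log2 unit above both others in 89 genes (0.446% of all genes) and more than 1 below both in 19 (0.0953%). The same count was 0 for culture 1 in either direction, 0 above for culture 3 and 1 below (0.00502%), Vldlr. At a distance of 0.5, culture 2 lay above both others in 446 genes (2.24%) and below in 181 (0.908%), culture 1 above in 63 (0.316%) and below in 12 (0.0602%), and culture 3 above in 31 and below in 31 (0.155% each). With 1 array a culture, such differences have no replicate of their own and no test was made.

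The brightest genes were a mixed group. Ribosomal protein, mitochondrially encoded, histone, small RNA, predicted and olfactory or vomeronasal receptor genes were left out here. Of the remaining genes, the 25 brightest included fibronectin (Fn1), Sparc, cystatin C (Cst3) and biglycan (Bgn) among secreted products. Fn1 was 14.28, 14.24 and 14.27 in cultures 1, 2 and 3, with rank 5 of all genes. The endoplasmic reticulum chaperones Hspa5 (14.13 ± 0.11, SD, n = 3), Hsp90b1 (13.88 ± 0.10) and Canx (13.86 ± 0.06) stood among them, as did the elongation factors Eef1a1 and Eef2, the iron store subunits Fth1 and Ftl1, and Vim and Actb of the cytoskeleton. Others in the group were Baiap2l1, Tpt1, thioredoxin (Txn1), the amino acid transporter subunit Slc3a2, B2m, Lgals1, the chaperone Hspa8, the initiation factor Eif4a1 and the ATP synthase subunits Atp5d and Atp5b. A pair of genes of fat cell metabolism was in the same group. The carbonic anhydrase Car3, typical of fat cells and slow muscle, was 14.00, 13.79 and 13.90 (rank 28), and Scd1, the stearoyl-CoA desaturase, was 13.94, 13.76 and 13.83 (rank 35).

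**Figure D1:**
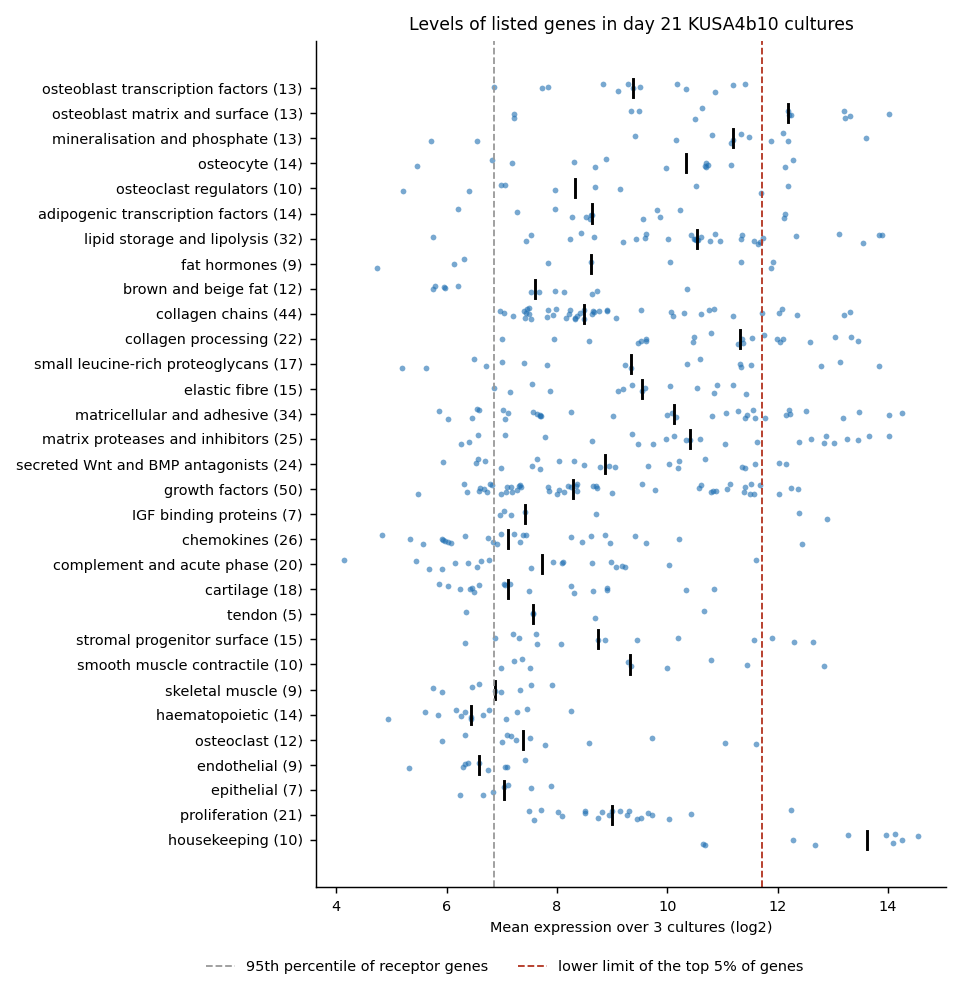
Mean log2 expression over the 3 cultures of every measured gene in 31 lists, with the number of genes in parentheses and a black bar at the list median. Dashed lines mark the receptor level (6.86) and the lower limit of the top 5% of genes (11.72). The osteoblast matrix list has the highest median of the bone, fat and matrix lists, at 12.20, and the haematopoietic list has the lowest of all, at 6.45.

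Osteoblast genes spanned the scale, with matrix genes high and transcription factors in the middle. Of 38 measured osteoblast genes in 3 lists, 10 were in the top 5% of all genes, against 5% by construction, and 35 were above the receptor level, against 67.6% of all genes. Some widely used osteoblast genes are not analysed here, 7 of 45 listed. None of the 13 measured transcription factors reached the top 5%. The highest was Snai2, a transcriptional repressor found in mesenchymal cells, at 11.20, 11.76 and 11.28. Next was Cbfb, a binding partner of Runx factors, at 11.17, 11.20 and 11.19. Sp7, which osteoblast formation requires, was 9.13, 10.50 and 8.91 (rank 5911). Culture 2 held the high value, 1.37 above the next. The homeobox gene Dlx5 was 9.21, 9.70 and 9.22, and Dlx3 was 8.80, 8.86 and 8.83. Msx1 (7.73 ± 0.02, SD, n = 3) and Msx2 (6.86 ± 0.06) were the lowest, with Msx2 at the receptor level.

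Among 13 measured osteoblast matrix and surface genes, 7 were in the top 5% and 4 in the top 1% (0.998% of all genes). Sparc, the collagen- and calcium-binding osteonectin, was 13.95, 14.18 and 13.92 (rank 19). Col1a1, the main chain of type I collagen, was 13.20, 13.77 and 12.98 (rank 96), and Col1a2 was 13.09, 13.54 and 12.96 (rank 114). Bone sialoprotein (Ibsp), which nucleates mineral, was 13.10, 13.67 and 12.91 (rank 110). In each of these 4 genes culture 2 was highest and culture 3 lowest. Alkaline phosphatase (Alpl), which frees phosphate for mineral, was 11.83, 13.03 and 11.72 (rank 532), and periostin (Postn) was 11.87, 12.92 and 11.84. The parathyroid hormone receptor Pth1r was 10.34, 11.23 and 9.97. The widest ranges belonged to osteomodulin (Omd), a keratan sulfate proteoglycan of bone, at 8.73, 10.64 and 8.65, and to Ifitm5, a membrane protein of mineralising osteoblasts, at 9.19, 10.58 and 8.71. Both were high in culture 2 alone.

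Mineralisation and phosphate genes had 4 of 13 members in the top 5%. Annexin A5 (Anxa5), found on matrix vesicles, was 13.54, 13.69 and 13.59. The phosphate carrier Slc20a1 was 11.91, 11.44 and 12.30, with culture 2 lowest, and the matrix vesicle phosphatase Phospho1 was 11.13, 11.46 and 10.98. The sphingomyelinase Smpd3, which skeletal mineralisation requires, was 8.78, 10.89 and 8.57, the widest range of the list (2.32). Matrix Gla protein (Mgp), an inhibitor of mineral, was 10.16, 9.96 and 10.35. The serum protein fetuin (Ahsg) and carbonic anhydrase 2 (Car2) were below the receptor level, at 6.55 ± 0.13 and 5.72 ± 0.09 (SD, n = 3).

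Osteocyte genes were present unevenly. Of 14 measured, 2 were in the top 5% and 12 above the receptor level, against 67.6% of all genes. Phex, an endopeptidase that restrains Fgf23, was 12.22, 12.30 and 11.86 (rank 599), and the actin-severing protein Dstn was 12.27, 12.27 and 12.28. Dmp1, a matrix phosphoprotein of osteocytes, was 11.49, 10.80 and 11.19 (rank 1798), lowest in culture 2. Podoplanin (Pdpn), an early osteocyte surface protein, was 10.52, 10.98 and 10.73. The late products were lower. Sclerostin (Sost), the Wnt inhibitor of mature osteocytes, was 8.51, 8.24 and 8.18 (rank 9047), and the phosphate hormone Fgf23 was 7.14, 7.34 and 7.07. Mepe, a further matrix phosphoprotein of osteocytes, was 5.59, 5.41 and 5.40, below the receptor level. The widest range was that of the transcription factor Mef2c, at 10.00, 10.59 and 9.36, with culture 3 lowest.

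**Figure D2:**
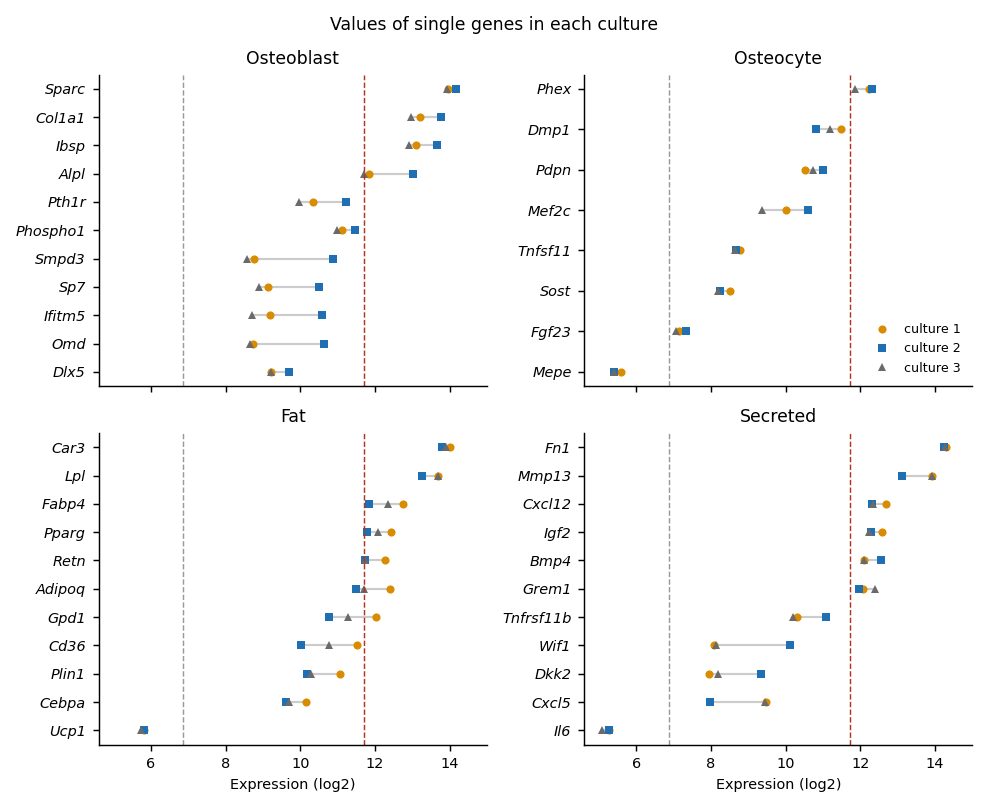
Log2 expression of single genes in culture 1 (orange circles), culture 2 (blue squares) and culture 3 (grey triangles), with grey lines joining lowest and highest and dashed lines at the receptor level (6.86) and the top 5% limit (11.72). Smpd3, Sp7, Ifitm5, Omd and Wif1 show culture 2 far to the right of the others, and Gpd1, Cd36, Plin1 and Adipoq show culture 1 rightmost.

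Fat cell genes also reached high levels in these osteoblast cultures. Of 55 measured fat genes (transcription factors, lipid storage and fat hormones), 10 were in the top 5% and 4 in the top 1%. Above the receptor level were 50, against 67.6% of all genes. Pparg, the nuclear receptor that drives fat cell formation, was 12.43, 11.80 and 12.10 (rank 615), and Ebf1 was 12.28, 11.98 and 12.13. Cebpa, which acts with Pparg, was 10.15, 9.61 and 9.70. Besides Car3 and Scd1, lipoprotein lipase (Lpl), which releases fatty acids from circulating lipid, was 13.68, 13.27 and 13.69 (rank 67). The fatty acid carrier Fabp4 was 12.75, 11.85 and 12.36. The desaturase Scd2 was 13.03, 13.43 and 12.88. The hormones resistin (Retn) and adiponectin (Adipoq) were 12.27, 11.75 and 11.73 and 12.42, 11.50 and 11.71. Leptin (Lep), at 6.13 ± 0.19 (SD, n = 3), and Retnla, at 4.74 ± 0.03, were below the receptor level. So was Ucp1, the uncoupling protein of brown fat, at 5.79 ± 0.05, and Cidea, at 5.75 ± 0.04. No brown or beige fat gene of 12 measured was in the top 5%, and the highest, Cox8b, was 10.87, 9.71 and 10.48. In cultures measured as bulk RNA, fewer cells of a type and less RNA per cell cannot be told apart.

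Fat genes were highest in culture 1. Culture 1 held the highest value of the 3 in 41 of the 55 fat genes, against 33.2% of all genes, and it exceeded both others by more than 0.5 log2 units in 10, against 0.316% of all genes. Culture 2 held the highest value in 9 fat genes and the lowest in 32, against 38.3% of all genes for the lowest. Culture 3 held the highest in 5, against 29.2% of all genes. Gpd1, which makes glycerol phosphate for lipid, was 12.02, 10.77 and 11.29, and the fatty acid transporter Cd36 was 11.52, 10.03 and 10.76. The droplet coat protein Plin1 was 11.07, 10.17 and 10.29, the glycerol channel Aqp7 was 10.66, 9.43 and 9.97, and the lipase Mgll was 9.83, 8.72 and 9.04. In each of these 5 genes culture 1 was highest and culture 2 lowest. With culture 2 left out, culture 1 was above culture 3 in 47 of the 55, against 54.6% of all genes, and the median difference was 0.15, against 0.01 over all genes. Mc5r, a melanocortin receptor outside the lists, was also among the 8 genes in which culture 1 lay furthest above the others, at 10.41, 9.44 and 9.63. The first of these 8 was the secreted hormone Stc1, which is in no fat list, at 8.97, 8.03 and 8.07. The rest were Tmem182, Adhfe1, Epas1, Mgll, Plin1 and Klb, the co-receptor of Fgf21. With 1 array of each culture, no test of this order was possible.

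Osteoblast genes were more often highest in culture 2, together with matrix, proliferation and contractile genes. Over the collagen, collagen processing, proteoglycan, elastic fibre and matricellular lists, culture 2 was highest in 90 of 132 genes, against 37.5% of all genes. Some of these genes are also in the osteoblast lists. Culture 2 held the highest value in 25 of 38 osteoblast genes, against 37.5% of all genes, and lay more than 1 log2 unit above both others in 6, against 0.446% of all genes. For the matrix and surface genes alone the median of culture 2 minus the mean of both others was 0.66, against -0.003 over all genes. For osteocyte genes it was 0.09, with 7 of 14 highest in culture 2. For mineralisation genes it was -0.03, with 6 of 13 highest and 6 lowest in culture 2. All 21 measured proliferation genes were highest in culture 2, with a median difference of 1.07, and 14 of them had a range above 1, against 1.16% of all genes. Mki67, a marker of cycling cells, was 9.01, 10.34 and 8.99. The mitotic kinesin Kif11 was 8.90, 10.28 and 8.64, the checkpoint kinase Bub1 8.07, 9.46 and 7.98, and cyclin A2 (Ccna2) 9.35, 10.59 and 9.22. Of 10 measured smooth muscle contractile genes, 8 were highest in culture 2. Tagln was 8.72, 10.50 and 8.81, the light chain Myl9 was 10.36, 11.79 and 10.24, and Acta2 was 12.49, 13.43 and 12.62. Whether the share of dividing cells had a part in the osteoblast values of culture 2 was not tested.

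**Figure D3:**
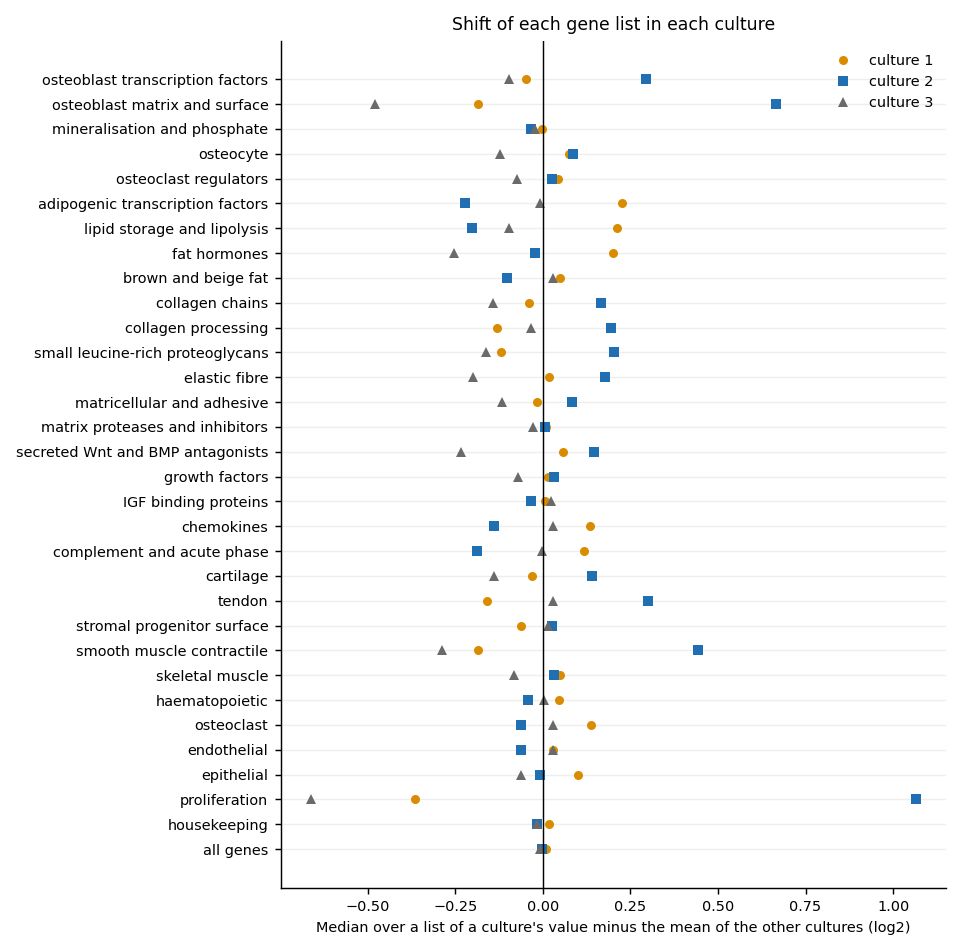
Median over each list of a culture's log2 value minus the mean of both other cultures, for culture 1 (orange circles), culture 2 (blue squares) and culture 3 (grey triangles). Proliferation (1.07) and osteoblast matrix and surface genes (0.66) lie furthest right in culture 2, the 3 fat lists lie between 0.20 and 0.22 in culture 1, and all genes lie at 0.

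Among proliferation genes, all highest in culture 2, most promoters held CCAAT and fewer held TTTGAA. Of 18 proliferation genes with a promoter in the RefSeq table (build GRCm38.p6), 15 held CCAAT on either strand in the 250 bases before the start, 83.3%, against 33.8% of all 32851 promoters. TTTGAA, the core of the cell cycle homology region, was in 6 of 18, 33.3%, against 16.0% of all. CCAAT was also in 4 of 8 contractile promoters, 50%, and in 10 of 28 osteoblast promoters, 35.7%. Mki67 and Cdk1, the mitotic kinase (10.19, 10.96 and 10.16), are shown because both motifs occur in each. In Cdk1 the last TTTGAA spans the bases 15 to 10 before the start. Myl9 is shown because it holds a CArG box, the serum response factor motif of contractile genes, found in 1.47% of all promoters and in 1 of 8 contractile ones. The Ibsp promoter is shown as that of a bone matrix gene in the top 1%. Its TATAAA, read on the opposite strand, spans the bases 28 to 23 before the start, and its CCAAT, also on the opposite strand, the bases 54 to 50. Capitals mark CCAAT and TTTGAA in Mki67 and Cdk1, the CArG box in Myl9, and TATAAA and CCAAT in Ibsp, on either strand, and the marked motifs do not overlap. The windows are chr7:135716380-135716629 (minus strand), chr10:69352913-69353162 (minus), chr2:156775214-156775463 (plus) and chr5:104299037-104299286 (plus). The Runx core TGTGGT was in 1 of 28 osteoblast promoters and in 14.0% of all. A match is a description of letters, and these 4 were chosen with their values known.
Mki67: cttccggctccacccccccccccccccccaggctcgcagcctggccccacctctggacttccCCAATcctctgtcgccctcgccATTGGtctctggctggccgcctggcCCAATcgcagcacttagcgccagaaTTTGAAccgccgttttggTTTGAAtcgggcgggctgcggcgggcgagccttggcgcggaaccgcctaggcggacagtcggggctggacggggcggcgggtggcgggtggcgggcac
Cdk1: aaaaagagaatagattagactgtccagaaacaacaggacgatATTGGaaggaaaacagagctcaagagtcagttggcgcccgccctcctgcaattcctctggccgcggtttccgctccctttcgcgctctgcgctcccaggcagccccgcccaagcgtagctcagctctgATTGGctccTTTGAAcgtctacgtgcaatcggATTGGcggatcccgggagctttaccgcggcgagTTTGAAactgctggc
Myl9: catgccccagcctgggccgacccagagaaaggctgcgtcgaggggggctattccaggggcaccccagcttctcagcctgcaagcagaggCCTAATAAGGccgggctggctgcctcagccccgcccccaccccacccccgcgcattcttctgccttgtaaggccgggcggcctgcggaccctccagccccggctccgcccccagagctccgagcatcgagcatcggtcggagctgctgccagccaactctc
Ibsp: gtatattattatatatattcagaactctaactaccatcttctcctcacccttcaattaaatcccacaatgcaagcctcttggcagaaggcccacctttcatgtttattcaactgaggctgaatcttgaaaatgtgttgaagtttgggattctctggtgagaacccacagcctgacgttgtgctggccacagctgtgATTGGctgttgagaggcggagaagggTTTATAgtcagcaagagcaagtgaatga

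**Figure D4:**
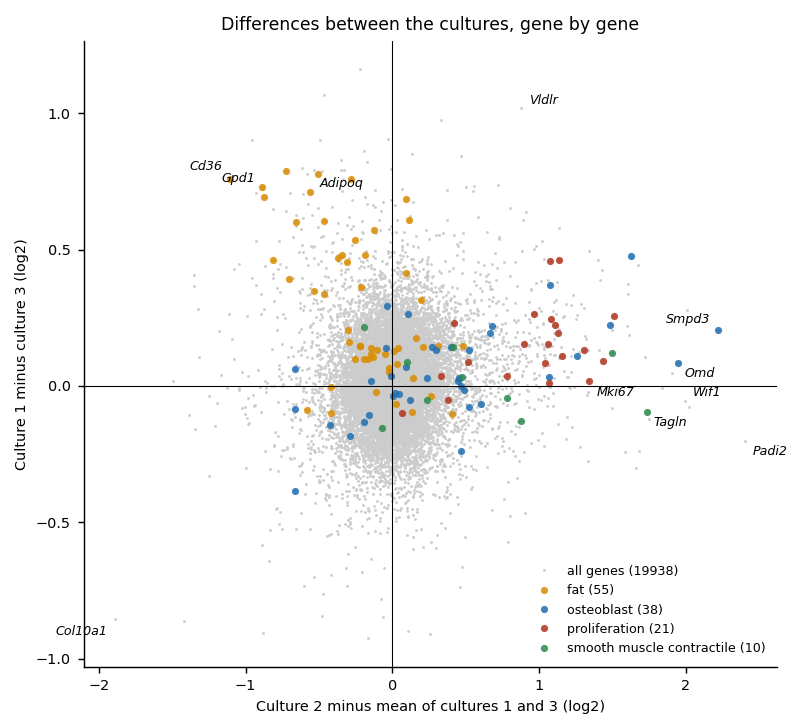
Each point is a gene: culture 2 minus the mean of cultures 1 and 3 (horizontal, log2) against culture 1 minus culture 3 (vertical, log2). Fat genes (orange) lie mostly to the upper left, and all 21 proliferation genes (red) lie right of 0. Of the genes labelled by name, Smpd3, Omd, Wif1 and Padi2 lie furthest right, while Col10a1 lies at the lower left.

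The collagens were led by type I, followed by types VI and VIII. Of 44 measured chains, 6 were in the top 5%. All 44 had a mean above the receptor level, against 67.6% of all genes. The lowest was Col28a1 at 6.98 ± 0.21 (SD, n = 3). It and others, such as Col4a3 (7.53), Col17a1 (7.46) and Col14a1 (7.42), lay below 7.61, the 99th percentile of the receptor genes. The type VI chains Col6a1, Col6a2 and Col6a3, which form beaded filaments, had means of 12.34, 12.02 and 12.08, and Col8a1 had 11.72. Col3a1, the fibrillar chain of soft tissue, was 9.94, 10.96 and 9.99. Col12a1, a fibril-associated chain, was 10.55, 12.25 and 10.79, high in culture 2 alone. Col10a1, the collagen of hypertrophic cartilage, ran the other way, at 11.05, 9.58 and 11.90 (rank 2390). Of 18 cartilage genes 11 were above the receptor level, against 67.6% of all genes. Sox9, the transcription factor of cartilage precursors, was 10.53, 9.91 and 10.61, and the cartilage collagen Col2a1 was 8.91 ± 0.18 (SD, n = 3). The matrix genes Acan (6.58 ± 0.06) and Hapln1 (5.87 ± 0.06) were among the 7 below the receptor level. Among the 18 cartilage genes culture 2 was highest in 12 and lowest in 4, against 37.5% and 38.3% of all genes. Col10a1 and Sox9 are thus not typical of the list. Culture 2 held the highest value in 34 of the 44 chains, against 37.5% of all genes.

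Genes of collagen processing, which include a chaperone and other non-enzymes, had a high median level. Of 22 measured, 8 were in the top 5% and all were above the receptor level, against 67.6% of all genes. P4hb, a subunit of the prolyl hydroxylase that uses ascorbate, was 13.44, 13.44 and 13.50, and the prolyl isomerase Ppib was 13.30, 13.24 and 13.46. The procollagen processing enhancer Pcolce was 13.02, 13.28 and 12.83, and lysyl oxidase (Lox), which cross-links collagen, was 12.47, 12.90 and 12.37. The collagen chaperone Serpinh1 was 11.92, 12.23 and 12.15. The hydroxylase subunit P4ha1 was 11.50, 12.03 and 11.75, while P4ha3 was 9.01, 10.36 and 9.03, the one member with a range above 1.

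Small leucine-rich proteoglycans, which bind collagen fibrils, ran from bright to dim, with a median of 9.34 over 17 measured. Biglycan was 13.81, 13.88 and 13.81 (rank 36), decorin (Dcn) 12.99, 13.35 and 13.07 (rank 128) and osteoglycin (Ogn) 12.86, 12.75 and 12.78 (rank 228). Asporin (Aspn, 11.11, 12.46 and 10.98) and fibromodulin (Fmod, 10.97, 11.98 and 11.06) were high in culture 2. Lumican (Lum) was 10.77, 11.84 and 11.34, with culture 1 lowest. Epyc (5.63 ± 0.13) and Kera (5.20 ± 0.11, SD, n = 3), proteoglycans of cartilage and cornea, were below the receptor level. Of 15 elastic fibre genes none was in the top 5% and none had a range above 1. The highest was the latent TGF-beta binding protein Ltbp3, at 11.46, 11.41 and 11.41, and elastin (Eln) was 7.56, 7.57 and 7.50.

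Among 34 measured matricellular and adhesive genes, 9 were in the top 5%. The thrombospondins Thbs2 and Thbs1 were 13.62, 13.24 and 13.56 and 13.13, 13.50 and 12.94, the one lowest and the other highest in culture 2. Tenascin C (Tnc) was 12.02, 12.97 and 11.70. Ccn5, a growth-arrest member of the CCN family, was 12.76, 12.25 and 12.55, and versican (Vcan) was 12.38, 11.78 and 12.31, both lowest in culture 2. Nephronectin (Npnt), an integrin ligand of osteoblasts, was 10.66, 12.50 and 10.66, with culture 2 1.83 above the next. Matn1 and Hapln1 of cartilage, with means of 6.03 and 5.87, were the lowest.

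Proteases and their inhibitors were among the brightest secreted genes, with 9 of 25 in the top 5% and 5 in the top 1%. Cystatin C was 14.05, 14.00 and 14.00 (rank 20). Mmp13, the collagenase of bone and cartilage, was 13.92, 13.11 and 13.92 (rank 52), and Mmp11 was 12.90, 11.92 and 12.98, both lowest in culture 2. Mmp2 was 13.56, 13.28 and 13.51, and its membrane activator Mmp14 12.88, 12.83 and 12.91. The inhibitors Timp3, Timp2 and Timp1 had means of 13.02, 12.83 and 12.38, and Serpinf1, an antiangiogenic serpin that bone formation requires, had 13.26 ± 0.03 (SD, n = 3). Mmp3 (6.26 ± 0.06) and Timp4 (6.41 ± 0.41) were below the receptor level.

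**Figure D5:**
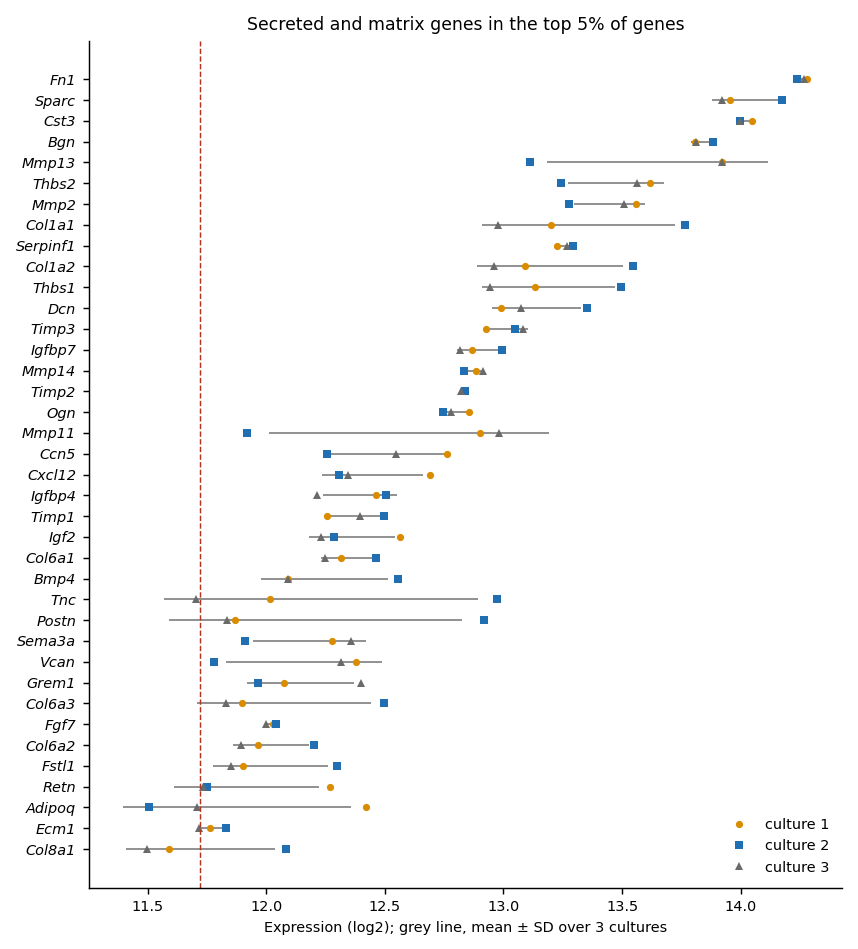
Log2 expression of the 38 secreted and matrix genes in the top 5% of genes, in rank order, for culture 1 (orange circles), culture 2 (blue squares) and culture 3 (grey triangles), with mean ± SD as a grey line and the top 5% limit (11.72) dashed. Fn1, Sparc, Cst3 and Bgn lead with close values, while Mmp11, Tnc, Postn and Adipoq have the cultures spread wide.

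Signalling proteins were dimmer than the matrix, with a few exceptions. Over 279 measured genes of secreted and matrix proteins together, 38 were in the top 5% and 14 in the top 1%. Of 50 growth factors, 3 were in the top 5%. Igf2, the growth factor stored in bone matrix, was 12.57, 12.29 and 12.23 (rank 417), Bmp4 was 12.09, 12.56 and 12.09, and Fgf7 had a mean of 12.02 ± 0.02 (SD, n = 3). Pdgfa was 11.10, 12.15 and 10.99, high in culture 2. Vegfa was 11.69, 11.16 and 11.65, low in culture 2. Bmp2 (5.48 ± 0.18) was the lowest, while Igf1 was 9.54 ± 0.21 (SD, n = 3). Of 7 IGF binding proteins, Igfbp7 (12.87, 12.99 and 12.82) and Igfbp4 (12.46, 12.50 and 12.21) were in the top 5%, and Igfbp3 (7.03 ± 0.04) and Igfbp1 (6.97 ± 0.05) were just above the receptor level.

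Wnt and BMP antagonists had 2 of 24 in the top 5%, Grem1, a BMP antagonist, at 12.07, 11.97 and 12.40, and Fstl1, at 11.90, 12.30 and 11.85. The Wnt inhibitor Sfrp2 was 11.61, 11.96 and 11.19, and Sfrp1 was 10.82, 11.17 and 10.08. Wif1, the secreted Wnt inhibitor named in the series title, was 8.09, 10.11 and 8.14, with a mean of 8.78 ± 1.15 (SD, n = 3) and rank 7928. Culture 2 lay 1.97 above the next culture. Only Padi2, Smpd3 and Has2 had a larger such gap among genes whose highest value exceeds the median of all genes. Predicted genes and the other kinds left out of the brightest genes did not enter this order. Dkk2 was likewise high in culture 2 alone, at 7.95, 9.34 and 8.18, while Dkk1 was 7.99, 7.79 and 7.31. Without culture 2 the mean of Wif1 was 8.12.

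Among proteins that act on osteoclasts, the guidance protein Sema3a was 12.28, 11.91 and 12.36 (rank 546) and the growth factor Csf1 had a mean of 11.69 ± 0.40 (SD, n = 3). Osteoprotegerin (Tnfrsf11b), the decoy receptor for RANKL, was 10.30, 11.07 and 10.19, and RANKL itself (Tnfsf11) was 8.78, 8.68 and 8.63. Tnf (6.41 ± 0.03) and Il6 (5.21 ± 0.10) were below the receptor level. Of 26 chemokines 1 was in the top 5%, the stromal chemokine Cxcl12, at 12.69, 12.31 and 12.35. Cxcl5 (9.47, 7.97 and 9.45), Ccl2 (10.02, 8.84 and 9.98) and Ccl9 (9.29, 8.16 and 9.19) were each more than 1 log2 unit lower in culture 2 than in both others. Cxcl15 (4.83 ± 0.12, SD, n = 3) was the lowest. Of 20 complement and acute phase genes none was in the top 5%. Haptoglobin (Hp), which fat cells make, was 12.07, 11.18 and 11.58, and complement factor B (Cfb) was 9.73, 8.45 and 9.02. In both, culture 1 was highest and culture 2 lowest. Such values were not confined to the fat lists. Culture 1 was highest in 16 of the 26 chemokines and 11 of the 20 complement and acute phase genes, against 33.2% of all genes. Culture 2 was lowest in 17 and 12 of them, against 38.3% of all genes.

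Genes that mark blood and endothelial cells were mostly at or below the receptor level, while other lists were nearer the share of all genes above it, 67.6%. Of 14 haematopoietic genes 4 were above the receptor level, the highest being Cd68 at 8.26 ± 0.12, and Ptprc, the pan-leukocyte CD45, was 6.27 ± 0.01 (SD, n = 3). Of 9 endothelial genes 3 were above it, with Pecam1 at 6.59 ± 0.03, and of 9 skeletal muscle genes 5, the highest being Acta1 at 7.91 ± 0.05. Of 7 epithelial genes 4 were above it, the highest being Krt8 at 7.89 ± 0.15. Of 12 osteoclast genes 10 were above it. Cathepsin K (Ctsk), which stromal cells also make, was 11.78, 11.15 and 11.90, the lysosomal chloride transporter Clcn7 was 11.05 ± 0.32, and the integrin chain Itgb3 was 9.72 ± 0.12 (SD, n = 3). The osteoclast phosphatase Acp5 was 7.50 ± 0.16. The calcitonin receptor Calcr (6.33 ± 0.08) and the fusion protein Dcstamp (5.92 ± 0.15) were below the receptor level. Among stromal surface genes, Pdgfrb (12.65 ± 0.09) and Pdgfra (12.29 ± 0.27) were in the top 5%, and Vcam1 was 11.83, 11.13 and 11.75. Nt5e, the ecto-nucleotidase CD73, was 9.82, 10.93 and 9.85, while Lepr was 6.34 ± 0.30 and Thy1 7.20 ± 0.10.

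The genes named next had a highest value above the median of all genes, and predicted genes and the like were left out. Outside the lists, the genes furthest above the others in culture 2 were Padi2, Has2, Dock10 and Tmem100. Padi2, a peptidylarginine deiminase, was 7.51, 10.02 and 7.71. Has2, the hyaluronan synthase, was 6.72, 8.78 and 6.80. Furthest below in culture 2, after Cxcl5 and Col10a1, were the hyaluronan-binding Itih2 (10.68, 9.34 and 10.78), Prl2c5, the stress gene Gadd45a (11.95, 10.69 and 12.11), the retinal reductase Dhrs3 (11.58, 10.35 and 11.61), Vnn1 and Ephx2. The 8 genes in which culture 3 lay furthest above the others were Oas2 (8.57, 8.14 and 9.47), the heparan sulfate enzyme Ndst4 (7.74, 6.75 and 8.60), Col10a1, the ephrin Efnb2 (8.57, 8.51 and 9.41), Ppef1, the oxidoreductase Ero1b, Sp100 (8.41, 8.23 and 9.11) and Ifitm6. It was lowest in Vldlr (9.51, 9.88 and 8.49), the cold-induced RNA-binding protein Cirbp (10.27, 10.11 and 9.29) and the vitamin D receptor Vdr (10.09, 10.28 and 9.36). In culture 1 the lowest included the heat shock gene Hspa1a (9.03, 9.74 and 9.94) and the immediate early genes Egr1 (10.26, 10.86 and 10.86) and Egr2 (8.77, 9.58 and 9.44).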

How the data were processed

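Total RNA was measured on Affymetrix Mouse Gene ST arrays, and the authors deposited log2 expression for each probe set. The submitters' processing notes name RMA and the build mm9. The software is not given in the sources used here. The RMA method sets probe distributions equal over arrays and compresses large differences. No scan dates were used, so no batch could be tested.

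Of 35556 probe sets, 21789 had 1 gene symbol in the platform annotation, 1621 had several and 12146 were not listed. For the 999 genes with several sets, the set with the highest mean over the 3 cultures was used. Values were not normalised further. Ranks, SDs and ranges were computed in Python 3.11.15 with pandas 2.3.3 and tested on simulated data. With 1 group there was no contrast and no test. No 2 cultures shared more than 24 identical probe set values. The number of arrays limits the precision.

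Genes were named by a rule: the 25 brightest, from each list up to 8 members in the top 5%, the 2 lowest and up to 6 of the widest range, the 8 furthest genes per culture and direction, and Wif1, Sp7, Sost and 4 sex-linked genes. The 8 furthest were taken from genes with a highest value above the median of all genes. The kinds left out of the 25 brightest were left out there too. Other list members complete a family. The members and 31 lists were chosen with earlier results of these data known, and lists share genes. Alternatives were the mean of probe sets, all probe sets ranked, other limits, quantile normalisation, median centring, a level filter and leaving out each culture.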

Additional observations from a re-analysis of the deposited data

How the results depend on the processing

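No paired analysis was possible because only 1 group was described. The top 10% in place of the top 5% held 16 osteoblast, 16 fat, 42 matrix and 32 other secreted genes, and 120 over all lists, where the top 5% held 10, 10, 26, 18 and 74. A distance of 0.5 in place of 1 log2 unit put culture 1 above both others in 63 genes and below in 12, culture 2 in 446 and 181, and culture 3 in 31 and 31. Median centring put culture 1 more than 1 above the others in 1 gene, and culture 3 below in 0, as did quantile normalisation. Genes with a range above 1 numbered 3 to 188 with 1 culture left out, 3 of them without culture 2 and 150 without culture 3. The brightest probe set of each gene was chosen again from the remaining cultures, so 188 stands for the pair of cultures 2 and 3 where 187 genes differed with the sets as first chosen. Counts for a single culture need all 3 and were not run with one left out. The counts of class members highest in a culture stayed within 1.5 times under quantile normalisation, median centring and the mean of probe sets, alternatives chosen after seeing the data. Of 230 named genes, 7 moved by more than 1 SD with the mean of their probe sets.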

Other observations

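The second brightest gene by its symbol, Baiap2l1, was measured by 3 probe sets with means of 14.62, 12.67 and 6.11, so its rank rests on which set is read. Xist, the RNA of the inactive X chromosome, was 5.61, 5.79 and 5.57 in cultures 1, 2 and 3. The Y-linked genes Kdm5d, Eif2s3y and Uty had means of 5.55, 4.12 and 5.09. All 4 were below the receptor level of 6.86 in every culture.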
